A study of Mus musculus with 6 samples.

Results

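The genes analysed here are 10: Pank1, Pank2, Pank3, Pank4, Ppcs, Ppcdc, Coasy, Dcakd, Slc25a42 and Slc25a16. They make coenzyme A or carry it into mitochondria, or are relatives of genes that do. They were listed by name from the pathway and found by Ensembl identifier among the 47069 genes of the count files, and all 10 were present. The set was chosen by reading the counts of Egr1-/- against Egr1+/+ mice in earlier work on the same data, so the genotype differences of these genes are given as a description.

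RNA was sequenced from the inguinal subcutaneous white adipose tissue (SC-WAT) of 2-week-old female mice on a C57BL/6 background (C57BL/6J in the study's methods), 3 Egr1+/+ and 3 Egr1-/- animals, with 1 fat pad library per mouse. EGR1 is a zinc finger transcription factor, and the Egr1-/- allele, present in all cells of the mouse, was made by gene targeting, with a LacZ reporter knocked in and the reading frame shifted ahead of the zinc fingers. The mice came from crosses of heterozygous parents, and only 1 mouse of each genotype is known to have shared a litter. The study asked how the loss of Egr1 alters the transcriptome of SC-WAT, a depot in which thermogenic beige adipocytes can arise among white adipocytes.

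Each library held 29661984 to 42357981 counts on genes, of which 50.0 to 66.3% lay on the mitochondrial genome, leaving 12572968 to 18449896 counts on all other genes. Levels below are CPM, the share of a library's counts that fall on a gene, on library sizes scaled by the TMM method for depth and composition. Egr1 stood at 10.3, 8.02 and 16.5 CPM in Egr1+/+ mice and at 3.09, 2.71 and 1.84 CPM in Egr1-/- mice, which accords with the genotype labels. Of the adipocyte markers, Adipoq, Plin1, Fabp4, Lipe, Cidec and Pparg summed to 4449 to 5924 CPM per mouse. Skeletal muscle transcripts varied widely, with summed markers at 2968 CPM in Egr1+/+ replicate 2, at 2458 CPM in Egr1-/- replicate 3 and at 90.8 to 988 CPM in the other mice.

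Coenzyme A carries acyl groups in fatty acid oxidation, the tricarboxylic acid cycle and lipid synthesis, and thermogenic fat, which burns fatty acids in its mitochondria, uses all of these. It is built from the vitamin pantothenate. Pantothenate kinases (Pank1, Pank2 and Pank3) add the first phosphate and set the pace of the pathway, Ppcs and Ppcdc add and trim cysteine, and Coasy performs the closing pair of steps. Slc25a42 is a carrier that brings coenzyme A across the inner mitochondrial membrane.

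Of the 4 Pank genes, 3 hold a microRNA hairpin in an intron on their own strand, and these microRNAs share 1 seed, the stretch of bases 2 to 8 that pairs with targets. Mir107 lies within Pank1, Mir103-1 within Pank3 and Mir103-2 within Pank2. No exon of any annotated host transcript overlapped a hairpin, and the hairpin was spanned by 3 of 4 transcripts of Pank1, 1 of 1 of Pank3 and 7 of 8 of Pank2. The mature sequences from RefSeq (GRCm38.p6) are shown because they tie the kinase genes to a single microRNA family, with the seed in capitals.
mmu-miR-107-3p (Pank1, chr19:34820700-34820722, minus strand): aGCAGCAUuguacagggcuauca
mmu-miR-103-3p (Pank3, chr11:35782447-35782469, plus strand, and Pank2, chr2:131288103-131288125, plus strand): aGCAGCAUuguacagggcuauga
Counted from 1 at the 5′ end, the only substitution from miR-103-3p to miR-107-3p was G22C. The seed GCAGCAU was held by 3 of the 1738 mature mouse entries, and those 3 are the ones named here. Mature microRNAs were not measured. Mir107 had 6, 2 and 4 counts in Egr1+/+ and 0, 1 and 0 in Egr1-/- animals. Mir103-2 had 3, 2 and 1 counts against 5, 7 and 4, while Mir103-1 had 1 count in a single Egr1-/- mouse. These counts are too few to compare, and intron reads of the host transcript cannot be told apart from hairpin reads.

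In SC-WAT of both genotypes Pank3 was the most abundant of the 10 genes per length of transcript. In the Egr1+/+ mice it reached 61.4, 50.4 and 60.5 CPM per kilobase of exon, a mean of 57.4 ± 6.12 (SD, n = 3 mice of each genotype here and below). This was 8.23 times the level of the next gene, Slc25a16, a relative of the yeast mitochondrial coenzyme A carrier, at 6.98 ± 0.338 CPM per kilobase. Then came Coasy at 6.76 ± 0.470, Pank2 at 5.18 ± 0.627 and Slc25a42 at 4.60 ± 0.585 CPM per kilobase. Ppcs at 2.87 ± 0.642, Pank1 at 2.74 ± 0.169, Dcakd at 2.40 ± 0.0516, Pank4 at 2.15 ± 0.347 and Ppcdc at 1.30 ± 0.143 CPM per kilobase closed the order. Of the 9 pairs of neighbours, 4 overlapped between mice: Slc25a16 with Coasy, Pank2 with Slc25a42, Ppcs with Pank1 and Dcakd with Pank4. In the Egr1-/- mice Pank3 was still first at 44.1 ± 3.61 CPM per kilobase, and Slc25a42, the fifth gene in the Egr1+/+ mice, was the second at 8.93 ± 0.770, where its range overlapped that of Coasy at 8.16 ± 0.863. Read against the length of the longest transcript in place of all exons, Slc25a42 and Pank2 exchanged places in the Egr1+/+ mice, Dcakd moved above Ppcs and Pank1, and Pank1 moved above Ppcs. On that length Pank3 was 5.39 times the level of Slc25a16, and Ppcdc, still last, was at 2.70 CPM per kilobase.

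**Figure D1:**
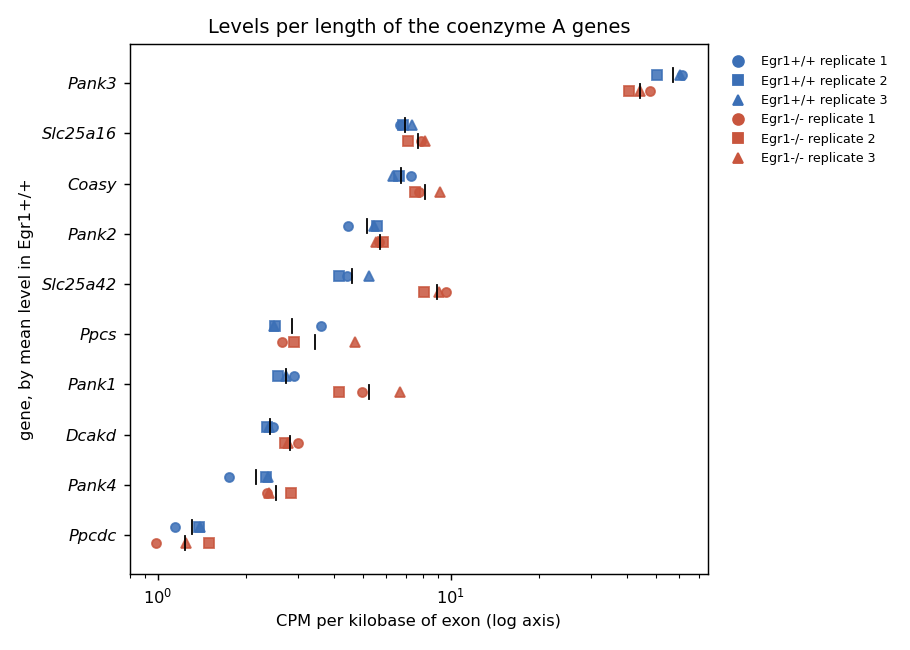
Level of each gene in CPM per kilobase of exon (log axis) in the 3 Egr1+/+ and 3 Egr1-/- mice, with genes in the order of their Egr1+/+ mean. Each point is 1 mouse and black bars are genotype means. Pank3 lies far to the right of the other genes in both genotypes. The gap between the points of the genotypes is wide in Slc25a42 and Pank1 and narrow in Coasy, Dcakd and Pank3.

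Of the 10 genes, Slc25a42 and Pank1 had the largest log2 fold changes between the genotypes, and both were near 2 times higher in Egr1-/- SC-WAT. Slc25a42 (chr8:70184340-70212305, minus strand, GRCm38) was at 26.4, 24.8 and 31.6 CPM in Egr1+/+ mice and at 57.5, 48.5 and 54.7 CPM in Egr1-/- mice. The lowest Egr1-/- mouse lay well above the highest Egr1+/+ mouse. The ratio of the means was 1.94 and the fitted log2 fold change was 0.96 (SE 0.13). Pank1 (chr19:34806940-34879455, minus strand) was at 24.1, 21.3 and 22.5 CPM in Egr1+/+ mice and at 41.0, 34.3 and 55.2 CPM in Egr1-/- mice. Its Egr1+/+ mice were close together, its Egr1-/- mice were spread, and the groups did not overlap. The ratio of the means was 1.92 and the log2 fold change was 0.94 (SE 0.17).

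Pank3 (chr11:35769484-35791285, plus strand), the kinase gene with the highest level, went the other way. It was at 453, 372 and 446 CPM in Egr1+/+ mice and at 351, 298 and 326 CPM in Egr1-/- mice. Every Egr1-/- mouse was below every Egr1+/+ mouse, by a narrow margin between Egr1+/+ replicate 2 and Egr1-/- replicate 1. The ratio of the means was 0.768 and the log2 fold change was -0.38 (SE 0.14). Pank2, whose human counterpart acts in mitochondria and is mutated in a neurodegenerative disease, was at 21.9, 27.6 and 26.9 CPM against 28.0, 28.9 and 27.3 CPM. Pank4, a member of the family that in mammals lacks kinase activity, was at 6.11, 8.16 and 8.26 CPM against 8.19, 9.88 and 8.37 CPM. Both had overlapping groups, with log2 fold changes of 0.14 (SE 0.12) for Pank2 and 0.23 (SE 0.17) for Pank4. Without Egr1+/+ replicate 1, the lowest mouse for both, these were 0.03 and 0.09.

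The make-up of the Pank family differed between the genotypes on a per length scale. Pank1 made 4.13, 4.23 and 3.83% of the summed CPM per kilobase of the 4 genes in the Egr1+/+ mice and 8.17, 7.79 and 11.4% in Egr1-/- mice. Pank3 made 87.1, 82.7 and 85.1% in Egr1+/+ animals and 78.6, 75.9 and 75.1% in Egr1-/- mice. In each genotype Pank3 remained the main transcript of the family. The Pank1 level was 0.0479 ± 0.00309 of the Pank3 level in the Egr1+/+ mice and 0.119 ± 0.0276 of it in the Egr1-/- mice. The summed level of the family was 67.5 ± 5.72 CPM per kilobase in the Egr1+/+ mice and 57.6 ± 3.84 in the Egr1-/- mice. The sums of the genotypes were 60.9 at the lowest Egr1+/+ mouse and 60.6 at the highest Egr1-/- mouse, and with the longest transcript as the length they overlapped. The 2 carriers stood in the opposite order in the genotypes on this scale: Slc25a42 was 0.658 ± 0.0558 of the Slc25a16 level in the Egr1+/+ mice and 1.16 ± 0.0472 of it in the Egr1-/- mice.

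**Figure D2:**
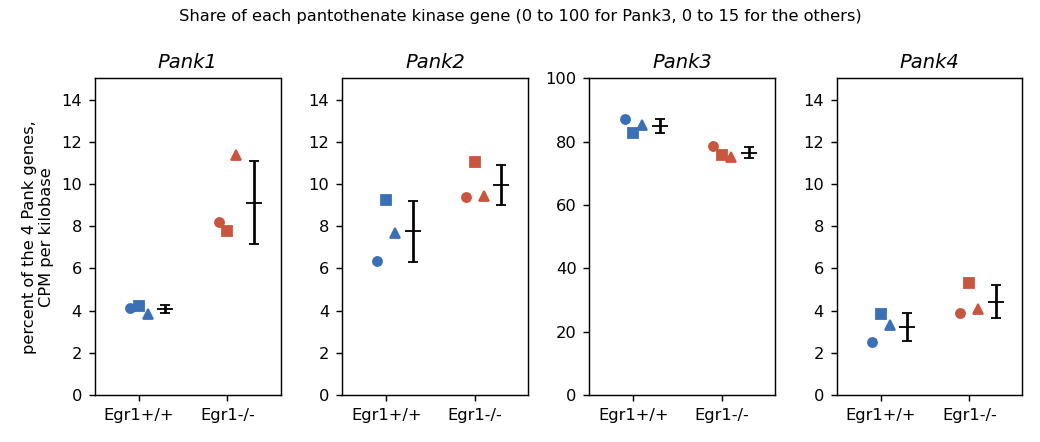
Share of each Pank gene in the summed CPM per kilobase of the 4 Pank genes, in percent, for the 3 Egr1+/+ (blue) and 3 Egr1-/- (red) mice. Circles, squares and triangles are replicates 1, 2 and 3, and black marks are the mean and SD. The Pank1 share was 4.07% ± 0.207 in Egr1+/+ and 9.11% ± 1.96 in Egr1-/- mice, and the Pank3 share was 84.97% ± 2.18 and 76.5% ± 1.80.

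The enzymes after the kinase step had small differences. Coasy, the bifunctional synthase, was at 20.9, 19.1 and 18.2 CPM in Egr1+/+ mice and at 22.3, 21.7 and 26.2 CPM in Egr1-/- mice. Dcakd, which resembles the dephospho-coenzyme A kinase part of Coasy, was at 6.29, 6.03 and 6.12 CPM against 7.65, 6.91 and 7.08 CPM. In both genes each Egr1-/- mouse was above each Egr1+/+ mouse, with log2 fold changes of 0.27 (SE 0.12) for Coasy and 0.23 (SE 0.14) for Dcakd. Ppcs was at 5.79, 4.03 and 3.99 CPM against 4.26, 4.68 and 7.57 CPM, and its log2 fold change of 0.26 (SE 0.26) turned to -0.04 without Egr1-/- replicate 3. Ppcdc, the decarboxylase, was at 6.61, 7.99 and 8.10 CPM against 5.70, 8.68 and 7.21 CPM, with a log2 fold change of -0.07 (SE 0.19) that became 0.07 without Egr1-/- replicate 1. Slc25a16 was at 32.2, 32.96 and 35.3 CPM against 38.0, 34.1 and 39.0 CPM, with overlapping groups and a log2 fold change of 0.15 (SE 0.11). With libraries scaled by total counts, which moved the median of all genes to -0.15, the log2 fold changes of Slc25a16 and Pank2 were -0.0086 and -0.0082.

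**Figure D3:**
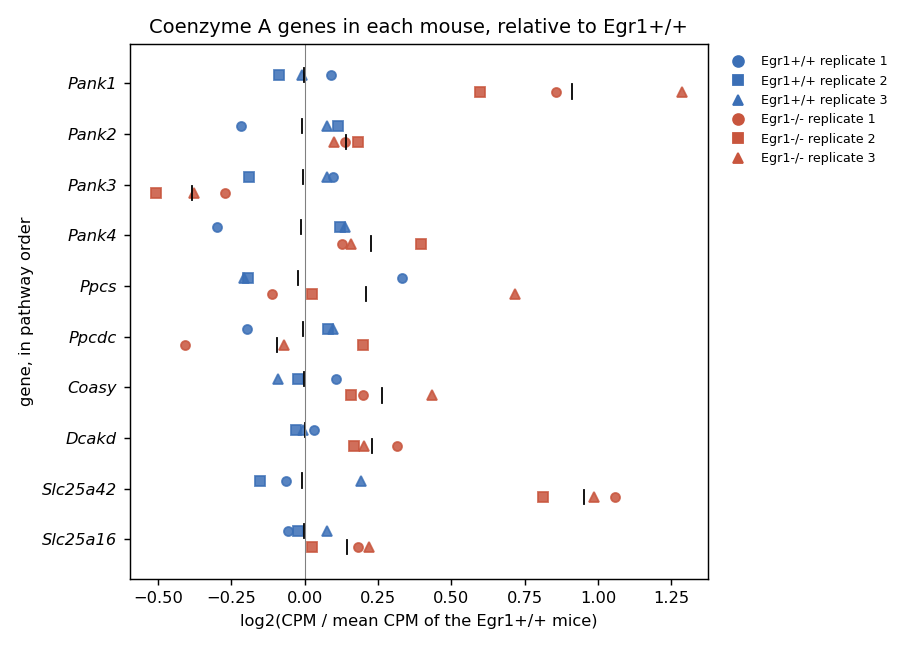
Level of each gene in each mouse as log2 of its CPM over the mean CPM of the Egr1+/+ mice, with genes in pathway order. Each point is 1 mouse, black bars are genotype means and 0 is the Egr1+/+ mean. The Egr1-/- points of Pank1, Slc25a42, Coasy and Dcakd lie to the right of all Egr1+/+ points and those of Pank3 to the left. The gap is wide in Pank1 and Slc25a42 and narrow in Coasy, Dcakd and Pank3.

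All 10 genes passed the filter on low counts and entered the fit on 17667 genes. With edgeR's quasi-likelihood test and Benjamini-Hochberg adjustment over all genes, 0 of the 10 passed an adjusted p of 0.05, where 0.017% of all genes did. Those were 3 genes, Eif3s6-ps2, Gm8822 and Trim67, named here only because the count is small. At an unadjusted p under 0.05 in edgeR, Pank1 and Slc25a42 were higher and Pank3 was lower, beside 5.06% of all genes higher and 5.6% lower. The adjusted p in edgeR was 0.0879 for Slc25a42, 0.16 for Pank1, 0.355 for Pank3 and 0.477 to 0.923 for the others. Egr1, the targeted gene, also had an edgeR adjusted p of 0.0879, at a log2 fold change of -2.19, so the edgeR fit did not call it either. DESeq2, the tool the study used, called 2 of the 10, Slc25a42 (adjusted p = 4.1e-07) and Pank1 (adjusted p = 0.000191), both higher. The study listed Pank1 among its upregulated beige genes and reported its increase by RT-qPCR as well. DESeq2 called 0.928% of the 13899 genes to which it gave an adjusted p as higher and 1.71% as lower, and Pank3 had an adjusted p of 0.112.

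Of the 10 genes, 8 had a log2 fold change above 0 and 2 had one below. Every Egr1-/- mouse was above every Egr1+/+ mouse in 4 of the 10 genes (Pank1, Coasy, Dcakd and Slc25a42), as in 8.15% of all genes tested. Every Egr1-/- mouse was below in 1 of the 10 (Pank3), as in 8.1% of all genes. The median log2 fold change of the 10 genes was 0.23, and that of all genes tested was 0.00109. Because this contrast was known when the genes were listed, nothing is read from these counts.

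Beige and brown adipocyte markers stood higher in the same mice. Ucp1, the uncoupling protein of thermogenic mitochondria, was at 400, 316 and 305 CPM in Egr1+/+ mice and at 858, 571 and 949 CPM in Egr1-/- mice. The 9 markers of this type summed to 566 to 718 CPM in the Egr1+/+ mice and to 984 to 1648 CPM in the Egr1-/- mice. Of the 8 that could be tested, 7 were above in every Egr1-/- mouse, as were 8.15% of all genes. Of those 8, edgeR called 0, beside 0.017% of all genes, and DESeq2 called 7 as higher, beside 0.928%. The median log2 fold change of the 8 was 0.96, beside 0.96 for Slc25a42 and 0.94 for Pank1. Most of the 8 markers were named as upregulated by the study in the same libraries, so these values are a description. Stromal markers summed to 4088 to 4849 CPM against 2454 to 3380 CPM, with 6 of 6 below in every Egr1-/- mouse, as were 8.1% of all genes. Of these markers, the study reported Col1a1 and Dcn as downregulated in the same libraries. The summed adipocyte markers were at 5489 to 5924 CPM against 4449 to 5370 CPM, a sum made mostly of Fabp4. Within that list Adipoq was below and Lipe above in every Egr1-/- mouse, with log2 fold changes of -0.41 (SE 0.15) and 0.36 (SE 0.13), and the other 4 overlapped. Macrophage markers were at 279 to 363 CPM against 212 to 249 CPM. Lymphocyte sums (379 to 416 against 297 to 625 CPM), endothelial sums (341 to 436 against 310 to 465 CPM) and mammary epithelial sums (0.815 to 9.99 against 5.27 to 8.29 CPM) overlapped. The part of cell composition in the differences of the coenzyme A genes was not tested, and in whole tissue fewer cells of a type and less RNA per cell cannot be told apart. Without Egr1+/+ replicate 2 and Egr1-/- replicate 3, the mice with the most muscle transcripts, the log2 fold changes were 0.69 for Pank1, 0.87 for Slc25a42 and -0.47 for Pank3.

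The profile of Pank1 over the 6 mice was set against those of 9772 genes with a mean of at least 5 CPM, by the root mean square difference of the log2 CPM after each gene's mean was removed. Plin5, a lipid droplet protein that tethers droplets to mitochondria, was the most alike, with a difference of 0.032. Plin5 was at 19.4, 17.7 and 17.8 CPM in Egr1+/+ mice and at 32.5, 28.7 and 43.9 CPM in Egr1-/- mice. It was followed by Fmc1 at a difference of 0.0848, by Gpd2 at 0.0857, by Slc36a2 at 0.103 and by Ppargc1b at 0.107. Gpd2 is the mitochondrial glycerophosphate dehydrogenase, Slc36a2 an amino acid transporter and Ppargc1b a coactivator of mitochondrial genes. The median difference over all genes was 0.515. Ucp1 was in place 50 with a difference of 0.195, Slc25a42 in place 60 with 0.201, and Pank3 in place 8564 with 0.674. For Slc25a42 the closest were Slc25a22, the mitochondrial glutamate carrier, at a difference of 0.133, Slc36a2 at 0.134 and Fmc1 at 0.143. Pank1 took place 13, Ucp1 place 100 with a difference of 0.276 and Pank3 place 8627 with 0.674. The 6 mice hold a genotype difference that many genes share, so likeness of this kind is a description over 6 points.

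Other genes of coenzyme A supply and use were taken from lists of the pathway. Vnn1 and Vnn3 are pantetheinases, which return pantothenate from a breakdown product of coenzyme A. Vnn3 was at 15.1, 30.0 and 28.2 CPM in Egr1+/+ mice and at 13.1, 15.2 and 12.9 CPM in Egr1-/- mice. Vnn1 was at 3.32, 11.4 and 8.68 CPM against 4.11, 3.52 and 3.75 CPM. In both genes Egr1+/+ replicates 2 and 3 were above all other mice, while Egr1+/+ replicate 1 lay within the Egr1-/- range for Vnn3 and below it for Vnn1. The log2 fold changes were -0.83 (SE 0.23) for Vnn3 and -1.04 (SE 0.37) for Vnn1, with edgeR adjusted p of 0.257 and 0.362. DESeq2 gave an adjusted p of 0.0237 for Vnn3 and 0.0831 for Vnn1. Slc5a6, the multivitamin transporter that takes up pantothenate, was at 3.03, 3.13 and 2.23 CPM against 3.30, 3.87 and 3.75 CPM, and its groups did not overlap, with an edgeR adjusted p of 0.575.

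Among the hydrolases of coenzyme A, Nudt7, which acts in peroxisomes, was at 22.9, 19.2 and 17.8 CPM in Egr1+/+ mice and at 28.9, 25.4 and 33.7 CPM in Egr1-/- mice. The groups did not overlap, and the log2 fold change was 0.56 (SE 0.15), with an adjusted p of 0.229 in edgeR and 0.0471 in DESeq2. Nudt19, the other peroxisomal hydrolase, was at 7.16, 8.86 and 8.07 CPM against 6.99, 6.75 and 7.79 CPM, and Nudt8 was not analysed here. Of 6 genes that transfer or accept the phosphopantetheine arm of coenzyme A, 0 passed edgeR's adjusted p, with 5 log2 fold changes above 0 and 1 below. Aldh1l2, a mitochondrial folate enzyme that carries this arm, was at 8.35, 7.16 and 6.57 CPM against 6.51, 5.13 and 4.91 CPM, lower in every Egr1-/- mouse. Aasdh was higher in every Egr1-/- mouse at 9.73, 10.04 and 9.73 CPM against 8.56, 9.06 and 8.37 CPM. Aasdhppt, the transferase, and Ndufab1, the mitochondrial acyl carrier protein, had log2 fold changes of 0.15 (SE 0.12) and 0.35 (SE 0.15) with overlapping groups. Those of Fasn, the fatty acid synthase, and Aldh1l1, the cytosolic folate enzyme, were 0.13 (SE 0.36) and 0.11 (SE 0.19). Slc25a17, the peroxisomal carrier of coenzyme A, had a log2 fold change of 0.10 (SE 0.15). In edgeR 0 of these 12 genes passed the adjusted p, beside 0.017% of all genes. At an unadjusted p under 0.05 in edgeR, 3 were lower and 2 higher, beside 5.6% and 5.06% of all genes. DESeq2 called 1 as lower, Vnn3, and 1 as higher, Nudt7, beside 1.71% and 0.928% of the genes given an adjusted p.

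**Figure D4:**
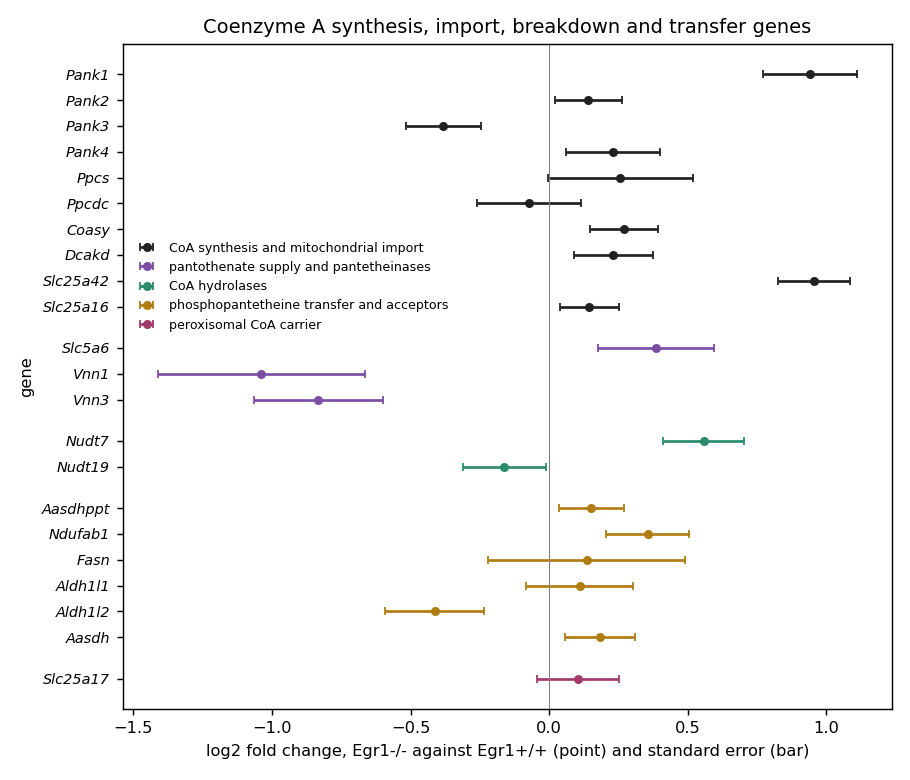
Fitted log2 fold change of Egr1-/- against Egr1+/+ for the 10 coenzyme A synthesis and import genes and 12 related genes, with bars of 1 standard error from edgeR. Pank1 at 0.94 and Slc25a42 at 0.96 lie farthest to the right, and Vnn1 at -1.04 farthest to the left.

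The promoters of Slc25a42 and Pank1 were read because these genes had similar profiles over the mice, with a genotype difference that many genes share. That of Slc25a16 was read because it is the carrier with little difference. RefSeq windows (GRCm38.p6), each 300 bases around an annotated start, were matched for 9 of the 10 genes and gave 12 windows, since Pank1 and Pank2 have several starts, and Coasy had no entry. The 4 windows are written 5′ to 3′ on the strand of the gene, with CCAAT, a common promoter element, and GCGNGGGCG, a loose form of the EGR1 motif, in capitals on either strand.
Slc25a42 (chr8:70212232-70212531, minus strand): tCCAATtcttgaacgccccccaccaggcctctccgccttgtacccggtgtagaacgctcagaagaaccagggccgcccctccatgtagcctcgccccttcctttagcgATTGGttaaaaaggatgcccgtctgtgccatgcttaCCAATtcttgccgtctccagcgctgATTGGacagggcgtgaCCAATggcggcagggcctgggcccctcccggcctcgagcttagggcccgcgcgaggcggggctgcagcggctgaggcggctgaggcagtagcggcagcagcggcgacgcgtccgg
Pank1 (chr19:34879406-34879705, minus strand): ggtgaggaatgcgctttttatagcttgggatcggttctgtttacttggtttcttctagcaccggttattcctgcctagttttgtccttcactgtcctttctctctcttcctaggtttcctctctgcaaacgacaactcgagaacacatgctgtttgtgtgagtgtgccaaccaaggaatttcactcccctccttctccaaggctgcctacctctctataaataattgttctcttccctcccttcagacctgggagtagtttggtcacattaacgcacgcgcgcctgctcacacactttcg
Pank1 (chr19:34877868-34878167, minus strand): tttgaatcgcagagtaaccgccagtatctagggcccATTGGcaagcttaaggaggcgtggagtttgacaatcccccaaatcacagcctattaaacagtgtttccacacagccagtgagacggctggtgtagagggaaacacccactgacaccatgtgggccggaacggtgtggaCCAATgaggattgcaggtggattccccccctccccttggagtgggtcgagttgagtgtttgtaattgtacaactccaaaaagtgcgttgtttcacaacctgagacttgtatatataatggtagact
Slc25a16 (chr10:62920383-62920682, plus strand): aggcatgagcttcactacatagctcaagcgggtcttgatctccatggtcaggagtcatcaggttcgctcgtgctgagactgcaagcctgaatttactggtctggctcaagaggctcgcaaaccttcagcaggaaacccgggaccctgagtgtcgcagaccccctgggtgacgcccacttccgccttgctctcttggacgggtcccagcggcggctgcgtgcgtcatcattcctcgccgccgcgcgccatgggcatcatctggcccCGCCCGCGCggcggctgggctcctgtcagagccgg
The Slc25a42 window held CCAAT 5 times, the highest count of the 12 windows. Of the 32851 windows of the table, 0.271% held it at least 5 times, a share without allowance for picking the highest. The first Pank1 window had none and the second had 2, and 11.7% of all windows had at least 2. G and C made 65.7% of the Slc25a42 window, which had 26 CpG pairs, against 48.0 and 49.7% with 10 and 8 CpG pairs in the Pank1 windows. The medians over all windows were 52.7% and 7 CpG pairs. The strict EGR1 motif GCGTGGGCG was in 0 of the 12 windows, as against 0.612% of all windows. The loose motif GCGNGGGCG, which covers the strict one, was in 2 of the 12, those of Slc25a16 and of the Pank2 start at chr2:131262589-131262888, and in 5.55% of all windows. CCAAT was in 6 of the 12 and in 37.4% of all windows, and TGACGTCA, the cyclic AMP response element, was in 0 of the 12 and in 1.79% of all windows. Such matches are descriptions of these letters in these windows.

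The counts behind each gene ranged from 9233 to 19238 per mouse for Pank3 and from 640 to 1916 for Pank1 and Slc25a42, down to 121 to 234 for Ppcs. Some exonic sequence was shared with other genes. Of the 50-base windows in the exons of Pank2, 20.9% also occurred in Rnf24, on the opposite strand, or in Gm14233, on the same strand with 0 to 2 counts. In Ppcdc 11.0% and in Dcakd 3.72% of windows occurred elsewhere, those of Dcakd in the opposite-strand gene Nmt1 and those of Ppcdc spread over 102 genes. The values of these 3 genes are less certain, those of Dcakd where counting did not use strand. For Pank2 this holds with or without strand, since it shares 359 exonic bases with Gm14233 on the same strand. In Slc25a42 the share was 1.6%, in Pank1 0.181%, in Slc25a16 0.0625%, and in Pank3, Pank4, Ppcs and Coasy 0%.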

How the data were processed

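The data are RNA-seq libraries of inguinal fat pads, 1 from each of 3 Egr1+/+ and 3 Egr1-/- mice. The authors depleted ribosomal RNA, made strand-specific libraries, mapped reads to GRCm38 with TopHat and Bowtie, assigned them to GENCODE M8 genes with featureCounts and deposited raw counts per gene. The paper gives paired-end reads and the labels single-end reads, and the strand setting of featureCounts is not given in the sources used here.

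Genes were named with GENCODE M21 (46488 of 47069 identifiers), which also gave exon lengths. Counts were fitted in R 4.3.3 with edgeR 4.0.16 (filterByExpr, TMM, quasi-likelihood test, no covariate), with Benjamini-Hochberg adjustment over all genes at 0.05. SEs were obtained by dividing each log2 fold change by the root of its F statistic. Alternatives were DESeq2 1.42.0, limma-voom 3.58.1, RLE, upper-quartile and total-count scaling, no mitochondrial genome, no filter, a replicate block, a muscle covariate and leaving out each mouse. Leaving out the 2 most muscle-rich mice was added after seeing the data.

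The members, gene lists and tests were chosen with earlier results of these data known. Named genes were the 10 members, Egr1, Ucp1, the pathway lists, marker genes, and the 5 and 3 genes nearest to Pank1 and Slc25a42 in profile. The 3 genes called by edgeR were named after their values were seen.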

Additional observations from a re-analysis of the deposited data

How the results depend on the processing

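The count of genes called depended on the fit: 3 in edgeR (3 higher, 0 lower), 366 in DESeq2, 1 in limma-voom, 0 with upper-quartile scaling, 79 (12 higher, 67 lower) with total counts, 552 without the filter on low counts, 6 with the muscle covariate and 0 without the 2 most muscle-rich mice. Leaving out 1 mouse gave 0 to 59 calls, with 59 without Egr1-/- replicate 1 and 0 without any of the other 5 (1190 to 2366 genes at an unadjusted p under 0.05, and 1568 without the muscle-rich mice). Of the 10 genes, 2 (Pank1 and Slc25a42) passed in DESeq2 and 2 without the filter, and 0 in the other alternatives. Adjusted p ran from 3.83e-07 to 0.626 for Pank1 and from 2.64e-07 to 0.469 for Slc25a42 over the 16 alternatives, and their log2 fold changes from 0.69 to 1.09 and from 0.79 to 1.06. Both lowest adjusted p values came from the fit without the filter. That fit took the spread of each gene from the trend over all genes and gave no weight to the gene's own spread between mice. Its calls are therefore not independent support.

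The median log2 fold change of the 10 genes was 0.081 with total counts, where the median of all genes moved to -0.15, and 0.17 to 0.24 leaving out 1 mouse. With total counts Pank2 was at -0.0082 and Slc25a16 at -0.0086, against 0.14 and 0.15 in the reported fit, a move of about the size of that of the median of all genes. Ppcs turned to -0.13 without the muscle-rich mice and ranged from -0.040 to 0.44 leaving out 1 mouse, Ppcdc from -0.22 to 0.072, Pank2 from 0.03 to 0.20 and Pank4 from 0.09 to 0.30. The cause of the turns in Ppcs and Ppcdc was not tested. Pank1, Pank3, Pank4, Coasy, Dcakd and Slc25a42 kept their sign in all 16. In deviations of log2 CPM from the genotype means, same-numbered mice correlated at -0.0888, 0.106 and -0.126, and 2 of 6 mice correlated best with their own number. With 3 mice per genotype these values cannot settle whether the numbers pair mice. With the replicate block 0 genes were called, with 1909 at an unadjusted p under 0.05, beside 1884 without it and 1902 with upper-quartile scaling.

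Depth limits Ppcs most, with 121 to 234 counts per mouse. Exon lengths from the longest transcript moved 8 of 10 Egr1+/+ levels by more than 1 SD.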

Other observations

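Acyl-CoA synthetases, which join fatty acids and acetate to coenzyme A, were counted as a list of 12 genes. In edgeR 0 of 12 passed the adjusted p, 2 had an unadjusted p under 0.05, both higher in Egr1-/- mice, and DESeq2 called 0, beside 0.017%, 5.06% and, for higher calls in DESeq2, 0.928% of all genes. Their log2 fold changes were above 0 in 9 and below 0 in 3, with a median of 0.21. Acsl1, the main long-chain synthetase of adipocytes, was at 883, 856 and 730 CPM in the Egr1+/+ mice and at 1057, 951 and 1204 CPM in the Egr1-/- mice. Its groups did not overlap, with a log2 fold change of 0.38 (SE 0.15) and an edgeR adjusted p of 0.411. It was the only one of the 12 above in every Egr1-/- mouse, as were 8.15% of all genes, and none was below in every one. Acsl3, Acsl4 and Acsl5 had log2 fold changes of -0.09 (SE 0.20), -0.08 (SE 0.11) and 0.05 (SE 0.10).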
